A study of Mus musculus with 10 samples.

Results

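Herc1, Mfsd6, Gch1, Snhg4, Tspan13 and Cdca7l are 6 genes that were already high in doxycycline-induced mouse fibroblasts labelled with an average of 0 cell divisions. They were chosen by their log2 intensities, as the 6 largest rises of that cohort against the starved control, out of 18193 genes measured, among genes that passed the test and whose arrays did not overlap. All 6 were found on the array, through 12 probe sets. The difference between the cohort of 0 divisions and the control is therefore what chose them, and it is described here with no test. The last gene inside the choice, Cdca7l, was 3.75-fold higher in the cohort of 0 divisions, and the next gene outside it, Cdca7, was 3.66-fold higher. What the choice did not fix is how each level went on in cells that had divided.

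The cells were secondary inducible embryonic fibroblasts of a 129/SvJ x C57/B6 hybrid strain, in which doxycycline switches on transgenes for Pou5f1, Sox2, Klf4 and Myc. Total RNA was measured on 10 Affymetrix arrays, 2 for each of 5 groups. The control cells carried the same transgenes and were kept uninduced in medium with 0.5% serum for 96 h. The other 4 groups received doxycycline, given in the labels as 2 ug/ul, in medium with 15% serum for 96 h, and their labels give the average number of divisions as 0, 1, 2 or at least 3. Induction and serum thus changed together between the control and every cohort, and cannot be told apart. The labels do not state how the cohorts were parted. Those of the control and of 3 or more divisions call the replicates biological, and none says that the 2 samples of a group came from separate cultures, so p-values measure only the spread between these samples, which may be technical. The arrays of the control and of 3 or more divisions share one form of label, and those of 0, 1 and 2 divisions another. A difference between these sets of arrays thus cannot be told apart from one of 3 or more divisions from 0, 1 or 2. The same holds for a difference of 0, 1 or 2 divisions from the control, so also for the rise that chose the genes.

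Quiescent fibroblasts in low serum shut down much of their ribosome and DNA synthesis machinery. The reprogramming factors, with Myc among them, act on that machinery and on the fibroblast programme within days, before most cells have reached a pluripotent state. The 6 genes come from different branches of cell biology. Herc1 encodes a giant ubiquitin ligase with RCC1-like and HECT domains. Mfsd6 encodes a membrane protein of the major facilitator superfamily. Gch1 encodes GTP cyclohydrolase, the rate-limiting enzyme of tetrahydrobiopterin synthesis, whose product is the cofactor of nitric oxide synthases and of the aromatic amino acid hydroxylases. Snhg4 is a noncoding RNA that hosts a small nucleolar RNA in an intron. Tspan13 is a tetraspanin, one of a family that organises other proteins in the membrane. Cdca7l, also called JPO2, encodes a zinc finger protein that binds Myc and the chromatin protein LEDGF, the product of Psip1, and is related to Cdca7, a partner of the helicase Hells.

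The start sites of the members are shown because the transgenes encode 4 factors that bind DNA. RefSeq windows of 300 bases, 250 before and 50 from the start site, were found for 5 of the 6 genes in build GRCm38.p6. They are given 5′ to 3′ on the strand of the gene. Shown are Herc1 and Tspan13, whose means were highest after 0 divisions, Mfsd6, whose level grew, and Cdca7l, which stepped up in the last cohort. Capitals mark a match to the octamer ATGCAAAT of Pou5f1, to CATTGTT of Sox2, to GGGTGTGG of Klf4 or to the E-box CACGTG of Myc, all searched on both strands.
Herc1, chr9:66350200-66350499, + strand: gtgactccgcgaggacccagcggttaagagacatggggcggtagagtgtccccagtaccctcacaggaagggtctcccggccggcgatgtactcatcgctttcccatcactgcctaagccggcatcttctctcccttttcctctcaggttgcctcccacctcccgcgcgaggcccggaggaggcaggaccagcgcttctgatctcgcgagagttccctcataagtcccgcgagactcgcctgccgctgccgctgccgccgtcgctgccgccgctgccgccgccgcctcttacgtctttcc
Tspan13, chr12:36042429-36042728, - strand: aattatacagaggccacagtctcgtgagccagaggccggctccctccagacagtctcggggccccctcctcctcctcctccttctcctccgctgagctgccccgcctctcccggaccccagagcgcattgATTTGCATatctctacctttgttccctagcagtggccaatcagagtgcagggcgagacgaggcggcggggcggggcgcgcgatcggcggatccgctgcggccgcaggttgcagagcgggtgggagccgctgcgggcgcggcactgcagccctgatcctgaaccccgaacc
Mfsd6, chr1:52727309-52727608, - strand: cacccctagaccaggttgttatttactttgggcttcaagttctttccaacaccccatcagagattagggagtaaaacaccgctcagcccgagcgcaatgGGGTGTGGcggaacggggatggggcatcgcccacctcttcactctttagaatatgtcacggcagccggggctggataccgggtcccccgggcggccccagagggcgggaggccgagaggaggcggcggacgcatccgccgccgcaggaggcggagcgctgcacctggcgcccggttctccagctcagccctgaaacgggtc
Cdca7l, chr12:117843611-117843910, + strand: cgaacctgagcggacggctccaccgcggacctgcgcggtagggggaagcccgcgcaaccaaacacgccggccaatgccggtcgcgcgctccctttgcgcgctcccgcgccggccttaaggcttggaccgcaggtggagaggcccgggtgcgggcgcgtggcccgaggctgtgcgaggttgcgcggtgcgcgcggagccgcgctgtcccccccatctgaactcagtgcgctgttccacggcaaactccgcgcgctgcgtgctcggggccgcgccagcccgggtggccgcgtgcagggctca
Tspan13 held the octamer, on the opposite strand and beginning 120 bases before the start site. Among all 32851 windows of this length, 1.74% held it. The Klf4 motif lay 151 bases before the start site in the window of Mfsd6 shown, and 3.56% of windows held that one. These letters were not found in the windows of Herc1, Cdca7l and Gch1, while 3.78% of all windows held the Sox2 motif and 7.15% the E-box. A match describes the letters and is not a site of binding.

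Markers of the labelled fibroblasts were read in every group, and the cohort of 3 or more divisions also held epithelial markers. The summed intensity of 8 fibroblast markers, among them Col1a1, Dcn and Thy1, ran from 101722 to 104726 in the control, 83335 to 88248 after 0 divisions, 81662 to 90399 after 1, 76935 to 84587 after 2 and 58229 to 67226 after 3 or more. Of these, Pdgfra averaged 7.85 on the log2 scale after 3 or more divisions and 10.80 in the control, Dcn 11.63 after 3 or more divisions and 13.61 in the control, and Vim 14.31 after 3 or more divisions and 14.24 in the control. The sums of 6 epithelial markers went the other way, with 197 to 235 in the control, 281 to 389 after 0, 479 to 907 after 1, 1319 to 2035 after 2 and 5423 to 6239 after 3 or more divisions. Cdh1, Krt8, Krt19 and Dsp made this course, with Cdh1 at 9.31 after 3 or more divisions and 3.37 in the control, while Epcam averaged 6.36 after 3 or more divisions and 6.25 in the control, and Krt18 3.85 after 3 or more divisions and 3.52 in the control. Sums of 5 macrophage markers were 355 to 418 after 3 or more divisions and 199 to 209 in the control. Cd68 made up that gap, with 8.10 after 3 or more divisions and 4.55 in the control, while Lyz2 averaged 5.11 after 3 or more divisions and 6.51 in the control, and Csf1r 5.38 after 3 or more divisions and 5.82 in the control. Those of 4 endothelial markers were 334 to 390 after 3 or more divisions and 126 to 129 in the control. Here Tek made up the gap, with 8.21 after 3 or more divisions and 5.77 in the control, while Kdr averaged 4.76 after 3 or more divisions and 5.31 in the control. Ptprc, a pan-leukocyte marker, averaged 3.52 to 3.84 on the log2 scale in all 5 groups and the endothelial gene Pecam1 3.49 to 3.66, and no detection calls were given. In bulk RNA, fewer cells of a type and less RNA per cell cannot be told apart. Actb, whose 3-prime and 5-prime control probe sets track how intact the RNA is, gave a log2 gap between them of 0.26 on both control arrays, 0.29 and 0.35 after 0 divisions, 0.29 and 0.47 after 1, 0.46 and 0.50 after 2, and 0.49 and 0.50 after 3 or more. The part of these shifts in the results on the 6 genes was not tested.

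All values of the 6 genes are log2 intensities, and those of different genes are not set against each other. On the probe set used here, Herc1 held a flat high level after the first rise. It read 6.94 and 6.93 on the control arrays, 10.61 and 10.39 after 0 divisions, 10.18 and 10.26 after 1, 10.33 and 10.39 after 2, and 10.35 and 10.47 after 3 or more. The control arrays stood apart from all 8 induced arrays, which lay within a narrow band. The cohort of 0 divisions averaged 10.50 ± 0.15 and the control 6.94 ± 0.01 (SD, n = 2 each), a log2 difference of 3.56 or 11.8-fold. In the cohort of 3 or more divisions, whose arrays carry the same form of label as the control, the log2 difference from the control was 3.47. On another probe set of the gene, 1440437_at, it was 2.34. The control arrays helped choose the gene, and the part of the form of label was not tested. The means of the 4 cohorts spanned 0.28. The order was 0, then 3 or more, then 2, then 1 division, and the arrays overlapped between the first pair of neighbours and between the second, while both arrays of 1 division lay below all of these.

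The 3 probe sets of Herc1 did not read alike. The one used here, 1434060_at, had the highest mean of the 3. Probe set 1440437_at read 5.51 and 4.87 in the control, 8.37 and 8.35 after 0 divisions, 7.83 and 7.79 after 1, 8.07 and 8.04 after 2, and 7.34 and 7.72 after 3 or more. It showed the same early gap of 3.17 on the log2 scale, but its level in the last cohort lay 0.83 below that of 0 divisions (a log2 difference of -0.83), where the probe set used here differed by -0.09. Probe set 1425378_at stayed between 4.37 and 4.94 on all 10 arrays, and its cohort of 0 divisions differed from the control by 0.04. Which transcripts of Herc1 each probe set reads was not analysed here.

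Tspan13 also had its highest mean after 0 divisions, and its later cohorts lay below it. Its arrays read 6.89 and 6.40 in the control, 8.69 and 8.48 after 0 divisions, 8.10 and 8.15 after 1, 8.42 and 8.22 after 2, and 8.41 and 8.29 after 3 or more. Both arrays of 0 divisions were above every other array, and the arrays of 2 and of 3 or more divisions overlapped. The cohort of 0 divisions averaged 8.59 ± 0.15 and the control 6.65 ± 0.35 (SD, n = 2 each), a 3.84-fold difference. Against 0 divisions, the later cohorts differed by -0.46, -0.27 and -0.24 on the log2 scale after 1, 2 and 3 or more divisions. The arrays of 0 divisions helped choose the gene for a high value there, so this decline is given with no test. The other probe set of Tspan13, 1418643_at, read 6.81 and 5.84 in the control and 8.57 and 8.13 after 0 divisions, and its later arrays reached at most 8.34.

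**Figure D1:**
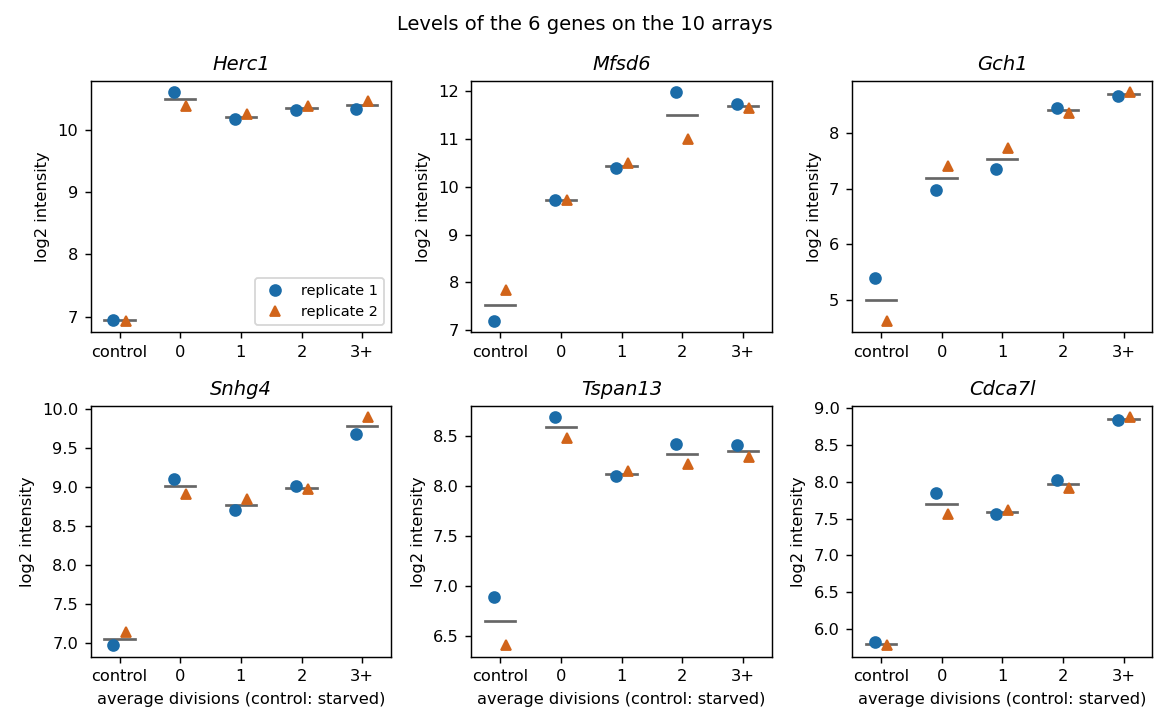
Log2 intensity (y axis, a separate range for each gene) of the probe set used for each of the 6 genes, by group (x axis: starved control, then induced cohorts by average divisions). Circles are replicate 1, triangles replicate 2 and bars the mean of the 2. The means of Herc1 and Tspan13 do not exceed that of 0 divisions, Mfsd6 and Gch1 climb, and Snhg4 and Cdca7l stay near their first level until the cohort of 3 or more divisions.

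Mfsd6 kept growing. It read 7.20 and 7.84 in the control, 9.72 on both arrays after 0 divisions, 10.40 and 10.49 after 1, 11.98 and 11.01 after 2, and 11.74 and 11.64 after 3 or more. On the probe set used here, no array of a cohort overlapped with the cohort before it up to 2 divisions. The arrays of 2 and of 3 or more divisions overlapped. The difference from the control was 2.20 on the log2 scale after 0 divisions, 2.92 after 1, 3.97 after 2 and 4.17 after 3 or more. The log2 difference after 0 divisions was thus 52.8% of that after 3 or more divisions, and the one after 2 divisions 95.3%. The share after 0 divisions uses the difference that chose the gene, so it may be too high. The form of array label differs from the control after 0 and 2 divisions but not after 3 or more. Its part in these shares cannot be told apart. Replicate 1 of 2 divisions stood 0.96 above replicate 2, the widest gap between 2 arrays of a group for this gene. The other probe sets showed that gap as well, with 8.81 and 7.63 for 1419124_at and 8.72 and 7.33 for 1424464_s_at, and both sets had higher means in each later cohort. On all 3 probe sets, replicate 1 of 2 divisions lay above both arrays of 3 or more divisions, so a rise after 2 divisions rests on replicate 2. For 1419124_at the arrays read 8.64 and 8.52 after 3 or more divisions, against 5.29 and 5.78 in the control.

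Gch1 grew as well. Its arrays read 5.38 and 4.62 in the control, 6.97 and 7.42 after 0 divisions, 7.35 and 7.74 after 1, 8.46 and 8.38 after 2, and 8.67 and 8.74 after 3 or more. The cohorts of 0 and 1 division overlapped, and each later cohort lay above all earlier arrays. The difference from the control was 2.19 after 0 divisions, 2.54 after 1, 3.42 after 2 and 3.70 after 3 or more. On the log2 scale the first was 59.3% of the last, with the same limits from the choice and from the form of array label as for Mfsd6. The other probe set, 1429692_s_at, whose suffix marks probes that can match several transcripts, read 5.13 and 4.81 in the control, 6.16 and 6.38 after 0 divisions and 7.53 and 7.18 after 2. It did not go on after that, with 7.23 and 7.02 after 3 or more divisions.

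Snhg4 stayed near its first level until the last cohort. It read 6.97 and 7.13 in the control, 9.10 and 8.90 after 0 divisions, 8.70 and 8.84 after 1, 9.01 and 8.96 after 2, and 9.67 and 9.89 after 3 or more. Cohorts of 0 and 2 divisions overlapped, the cohort of 1 division lay just below them, and both arrays of 3 or more divisions lay above all others. The log2 difference from the control was 1.95, 1.72 and 1.94 after 0, 1 and 2 divisions and 2.73 after 3 or more. Snhg4 was read by a single probe set.

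Cdca7l had a like course. Its arrays read 5.82 and 5.78 in the control, 7.84 and 7.57 after 0 divisions, 7.56 and 7.62 after 1, 8.03 and 7.92 after 2, and 8.84 and 8.88 after 3 or more. The cohorts of 0 and 1 division overlapped, those of 2 divisions lay just above, and both arrays of the last cohort were the highest. The log2 difference from the control was 1.91 after 0 divisions, 1.79 after 1, 2.18 after 2 and 3.06 after 3 or more, an 8.36-fold difference for the last. It too was read by a single probe set.

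**Figure D2:**
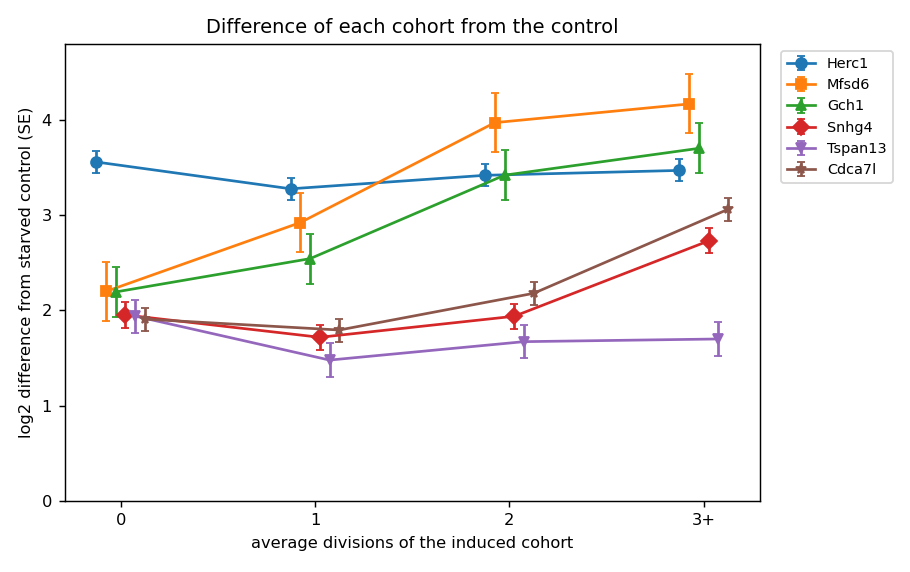
Log2 difference of each induced cohort from the starved control (y axis, error bars are the SE of the model) by average divisions (x axis) for the 6 genes. The lines of Mfsd6 and Gch1 rise to 4.17 and 3.70, those of Snhg4 and Cdca7l rise after 2 divisions to 2.73 and 3.06, and those of Herc1 and Tspan13 end at 3.47 and 1.70, near where they began. All points share the 2 control arrays.

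Against the control, both arrays of each induced cohort were above both control arrays for all 6 genes, on the probe set used for each. Among all genes this held for 21.4% after 0 divisions, 22% after 1, 26.7% after 2 and 34.6% after 3 or more. The control arrays were part of the choice, so nothing is read from that count. After 0 divisions 0.22% of genes passed the test as higher with arrays apart, which is the pool that the 6 came from.

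**Figure D3:**
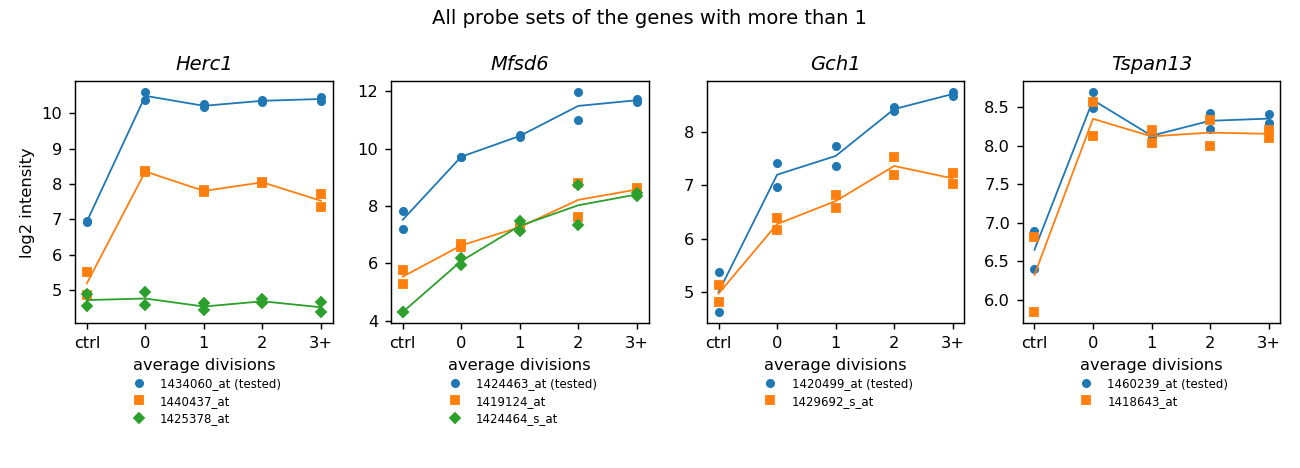
Log2 intensity (y axis) of every probe set of the 4 genes with more than 1, by group (x axis: control, then average divisions). Points are arrays and lines join group means. Probe set 1425378_at of Herc1 stays between 4.37 and 4.94, and the others are higher in all cohorts than in the control.

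Differences among the cohorts of 1, 2 and 3 or more divisions, whose means the choice did not use, could be tested. The test was limma's moderated linear model over all 10 arrays, with Benjamini-Hochberg adjustment over 18193 genes and a threshold of 0.05, two-sided. The residual variance of that model pools all 10 arrays and also entered the choice of the 6 genes, which had to pass the test, so the choice and these tests share it. In the cohort of 3 or more divisions against that of 1 division, 4 of the 6 genes rose. The form of the array labels changes between these cohorts too, and cannot be told apart from division. Cdca7l averaged 8.86 ± 0.03 after 3 or more divisions and 7.59 ± 0.04 after 1 (SD, n = 2 each), a log2 difference of 1.27 ± 0.12 (SE, limma adjusted p = 0.00412). Snhg4 averaged 9.78 ± 0.16 after 3 or more divisions and 8.77 ± 0.10 after 1, a log2 difference of 1.01 ± 0.13 (SE, limma adjusted p = 0.00701). Gch1 averaged 8.70 ± 0.05 after 3 or more divisions and 7.54 ± 0.27 after 1, a log2 difference of 1.16 ± 0.26 (SE, limma adjusted p = 0.0291). Mfsd6 averaged 11.69 ± 0.07 after 3 or more divisions and 10.44 ± 0.06 after 1, a log2 difference of 1.25 ± 0.31 (SE, limma adjusted p = 0.0391). With intensities floored at 16 the calls of Mfsd6 (limma adjusted p = 0.0897) and Gch1 (0.0682) were lost, and with the mean of its probe sets that of Mfsd6 (0.0518). Of all genes 7.41% passed as higher in this comparison, 4.86% as lower and 12.3% in either direction.

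Herc1 and Tspan13 did not pass in that comparison. Herc1 differed by 0.19 on the log2 scale, with a 95% interval of -0.07 to 0.46 (limma adjusted p = 0.34), and Tspan13 by 0.22, with an interval of -0.18 to 0.63 (limma adjusted p = 0.491). The intervals leave room for a rise or a small fall, but not for a doubling on the scale of these intensities. The estimates of Cdca7l (2.41-fold), Mfsd6 (2.37-fold), Gch1 (2.23-fold) and Snhg4 (2.02-fold) reached a doubling. On the probe set used for each gene, all 6 had both arrays of 3 or more divisions above both of 1 division, as did 31% of all genes. On 1440437_at of Herc1 both arrays of 3 or more divisions (7.34 and 7.72) lay below both of 1 division (7.83 and 7.79). The arrays of these cohorts overlapped on 1425378_at of Herc1 and on 1418643_at of Tspan13.

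Against 2 divisions, the cohort of 3 or more divisions was higher for 2 of the 6 genes, where 3.46% of all genes passed as higher, 2.52% as lower and 5.97% in either direction. Cdca7l stood at 8.86 ± 0.03 after 3 or more divisions and 7.98 ± 0.08 after 2 (SD, n = 2 each), a log2 difference of 0.88 ± 0.12 (SE, limma adjusted p = 0.018). Snhg4 stood at 9.78 ± 0.16 after 3 or more divisions and 8.99 ± 0.03 after 2, a log2 difference of 0.79 ± 0.13 (SE, limma adjusted p = 0.027). Mfsd6 and Gch1 did not pass here, with log2 differences of 0.20 (95% interval -0.52 to 0.91) and 0.28 (-0.33 to 0.89). Herc1 differed by 0.051 (-0.22 to 0.32) and Tspan13 by 0.028 (-0.38 to 0.43). On the probe set used for each gene, both arrays of 3 or more divisions lay above both of 2 for 3 of the 6 genes, Cdca7l, Snhg4 and Gch1. They did so for 30.8% of all genes. On 1429692_s_at of Gch1 they overlapped, with 7.23 and 7.02 after 3 or more divisions and 7.53 and 7.18 after 2. The 2 cohorts differ in the form of their array labels, and in the epithelial and fibroblast sums given above. Of the 6 epithelial markers 2 rose between these cohorts and 4 between 3 or more divisions and 1, and their part in the results was not tested.

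Between 2 divisions and 1, the comparison within 1 set of arrays, none of the 6 genes passed, and limma called 0 of 18193 genes (0%), with 475 genes (2.61%) at an unadjusted p under 0.05. With the replicate number as a block limma also called 0 genes, with 977 (5.37%) at an unadjusted p under 0.05. Both arrays of 2 divisions lay above both of 1 division for all 6 genes, against 13.7% of all genes. The log2 differences were 1.05 for Mfsd6 (95% interval 0.33 to 1.77), 0.88 for Gch1 (0.27 to 1.49), 0.39 for Cdca7l (0.11 to 0.67), 0.22 for Snhg4 (-0.08 to 0.53), 0.19 for Tspan13 (-0.21 to 0.60) and 0.14 for Herc1 (-0.12 to 0.41). These intervals are not adjusted for the number of genes.

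**Figure D4:**
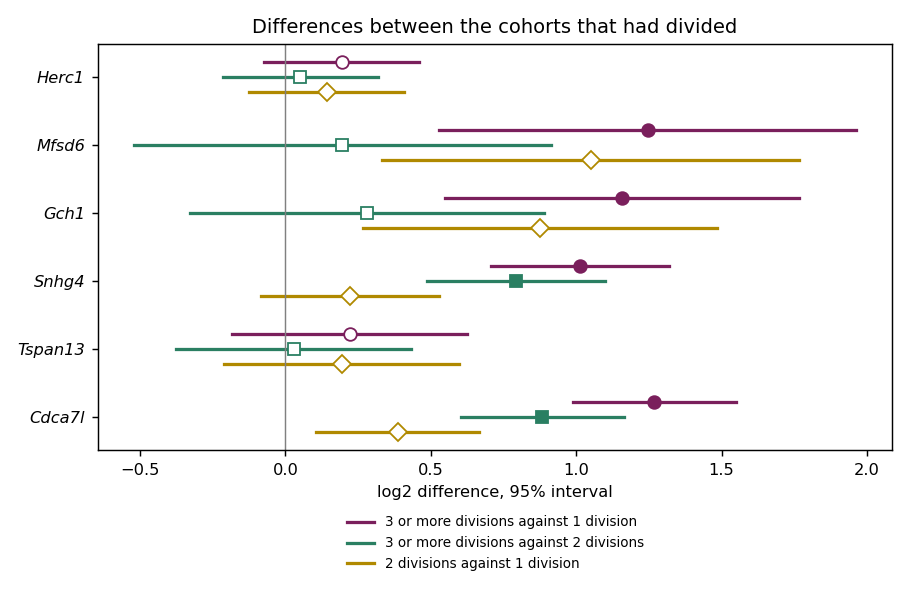
Log2 differences (x axis) between the cohorts of 1, 2 and 3 or more divisions for the 6 genes, with 95% intervals. Filled symbols have a limma adjusted p under 0.05 and open ones do not. Cdca7l and Snhg4 passed in both comparisons with 3 or more divisions, Mfsd6 and Gch1 against 1 division, and no gene passed between 2 and 1.

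The calls rest on few arrays. That of Cdca7l between 3 or more divisions and 1 held in all 10 fits that left out 1 array. Snhg4 lost its call there without replicate 1 of 1 division (adjusted p = 0.0513) or replicate 2 of 3 or more divisions (0.0648), by limma as before. Gch1 lost it without replicate 1 of 1 division (0.158), replicate 2 of 2 divisions (0.0502), and replicate 1 or 2 of 3 or more divisions (0.0917 and 0.179). Mfsd6 lost it without replicate 1 or 2 of 0 divisions (0.0639 and 0.0636), of 1 division (0.162 and 0.0888) and of 3 or more divisions (0.136 and 0.186). Against 2 divisions, the call of Cdca7l was lost without replicate 1 or 2 of 2 divisions (0.0537 and 0.129) or replicate 2 of 3 or more divisions (0.154), and that of Snhg4 without the same 3 arrays (0.0831, 0.146 and 0.199). The differences themselves kept their sign in these fits, from 0.90 to 1.13 for Snhg4, 0.97 to 1.35 for Gch1 and 1.20 to 1.29 for Mfsd6 between 3 or more divisions and 1. The count over all genes also moved with single arrays, with 107 of 18193 genes called between 3 or more divisions and 1 without replicate 2 of 3 or more divisions, 1337 without replicate 1 of that cohort and 260 without replicate 1 of 1 division, against 2232 with all arrays. Between 3 or more divisions and 2, 1087 genes were called with all arrays. That fell to 658 and 672 without replicate 1 or 2 of the control, 291 and 290 without replicate 1 or 2 of 0 divisions, 169 and 16 without replicate 1 or 2 of 2 divisions, and 485 and 6 without replicate 1 or 2 of 3 or more divisions. With the replicate number as a block, 24% of all genes were called between 3 or more divisions and 1 (13% as higher) and 19% between 3 or more divisions and 2 (10.1% as higher), and the same 4 and 2 of the 6 genes passed.

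Genes with the closest course were looked for by Pearson correlation over the 10 arrays, among genes whose group means spanned at least 1 on the log2 scale, 2928 for each member. The arrays come in 5 groups, and the gap between the control and all other arrays enters every such correlation, so these are descriptions. Herc1 was most like Tesk2, a protein kinase gene (r = 0.98), Tspan13 (r = 0.97) and Neto2 (r = 0.95), and Tspan13 was most like Herc1, Neto2 (r = 0.95) and Tesk2 (r = 0.95). Tesk2 averaged 6.43 in the control and 7.48, 7.45, 7.63 and 7.66 after 0, 1, 2 and 3 or more divisions, an early step followed by a plateau. Mfsd6 was most like Bbip1 (r = 0.99), the metallothionein gene Mt2 (r = 0.98) and Iars2, a mitochondrial tRNA synthetase gene (r = 0.98). Mt2 averaged 8.53 in the control, 10.05 and 10.59 after 0 and 1 division, and 11.27 and 11.53 after 2 and 3 or more. Gch1 was most like C730049O14Rik (r = 0.99), the alcohol dehydrogenase gene Adh7 (r = 0.99) and the ubiquitin ligase gene Rnf125 (r = 0.99). Snhg4 was most like Cdca7l (r = 0.99), the ribosomal protein gene Rps25 (r = 0.98) and Dnph1 (r = 0.98), and Cdca7l most like Dnph1 (r = 0.997), the nucleolin gene Ncl (r = 0.99) and Snhg4. Among the 6, the least alike were Tspan13 and Mfsd6 (r = 0.79).

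Relatives and pathway partners of the 6 genes were described from 6 lists, each without the member itself. For Cdca7l, the list of Cdca7 and partners held 6 other genes. Cdca7, which read 5.54 and 5.61 in the control and 7.67 and 7.22 after 0 divisions, is the gene just outside the choice. Later it read 7.53 and 7.37 after 1 division, 8.08 and 7.36 after 2, and 8.35 and 8.58 after 3 or more, and it rose between 3 or more divisions and 1 by 1.01 ± 0.24 (log2, SE, limma adjusted p = 0.0355). Hells, the chromatin helicase that works with Cdca7, rose by 1.28 ± 0.19 (limma adjusted p = 0.009), so 2 of 6 rose and 0 fell, against the shares of 7.41% and 4.86% over all genes, with a median of 0.68, against 0.02 over all genes. Myc was 2.84-fold higher in that comparison and did not pass (limma adjusted p = 0.0798), but did with the replicate block (0.00422). It averaged 9.60 ± 0.31 after 0 divisions and 7.94 ± 0.91 in the control (SD, n = 2 each), where it did not pass either (limma adjusted p = 0.211, and 0.0167 with the block). The probe set used for Myc was not checked for whether it also reads the transgene. The other listed partners, Psip1, Max and Maoa, differed by 0.16, 0.35 and 0.25 between 3 or more divisions and 1 and did not pass.

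For Snhg4, 19 of 24 listed host genes of small nucleolar RNAs were measured. Between 3 or more divisions and 1, 4 rose and 2 fell, where 7.41% of all genes rose and 4.86% fell, and the list had a median of 0.37. Snhg3 rose by 2.32 ± 0.20 (log2, SE, limma adjusted p = 0.00316), to 9.09 ± 0.29 after 3 or more divisions against 6.77 ± 0.37 after 1 (SD, n = 2 each). Snhg14 rose by 0.80 and Snhg18 fell by 0.96, and the other calls were the rises of the nucleolin gene Ncl (0.63) and the translation factor gene Eif4a1 (0.53) and the fall of its paralogue Eif4a2 (-0.47). In the cohort of 0 divisions against the control, Snhg3 (1.36) and Ncl (0.80) were called among the 19, where 0.297% of all genes were called, and the list's median was 0.48 against 0.00 over all genes. Against the control, 11 of the 19 were called as higher after 3 or more divisions and 2 as lower, where 15.9% of all genes were called as higher and 11.7% as lower.

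For Gch1, 13 of 15 listed genes of tetrahydrobiopterin synthesis, recycling and use were measured. Spr, sepiapterin reductase of the last step of synthesis, rose between 3 or more divisions and 1 by 0.79 ± 0.20 (log2, SE, limma adjusted p = 0.0403), and Nos3, the endothelial nitric oxide synthase gene, by 0.46 ± 0.11 (limma adjusted p = 0.0362). These 2 rises came with 0 falls and a median of 0.22. Of all genes 7.41% rose and 4.86% fell there, with a median of 0.02. Nos3 read between 3.62 and 4.54 on all 10 arrays and lay 0.81 lower after 0 divisions than in the control (a log2 difference of -0.81), the single call of the list there, where 0.077% of all genes were called as lower. Gchfr, the feedback regulator of GTP cyclohydrolase, was called as higher after 3 or more divisions than in the control, by 2.73 ± 0.52 (limma adjusted p = 0.00602), as was Spr (1.31). These were the 2 calls among the 13, where 15.9% of all genes were called as higher and 11.7% as lower.

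For Tspan13, 28 of 30 other tetraspanins were measured, and they moved in both directions. Between 3 or more divisions and 1, 3 rose and 2 fell, where 7.41% of all genes rose and 4.86% fell, and the list had a median of -0.12. Tspan33 rose by 1.70 ± 0.27 (log2, SE, limma adjusted p = 0.0112), Tspan15, a partner of the protease ADAM10, by 1.35 ± 0.33 (limma adjusted p = 0.0376) and Tspan14 by 0.83, while Tspan6 fell by 1.28 and Tspan3 by 0.61. The readings of Tspan33 were dim, with means of 4.18 in the control, 3.85 after 1 division and 5.55 after 3 or more. None of the 28 was called after 0 divisions against the control by limma, where 0.297% of all genes were called. In that comparison 3 had an unadjusted p under 0.05, a threshold for which no share of all genes is given here. Nothing is read from that count, nor from those at the same threshold for the lists below. For Herc1, 22 of 24 other HERC and HECT ligases were measured. Between 3 or more divisions and 1, 3 of the 22 rose and 1 fell, where 7.41% of all genes rose and 4.86% fell, and the list had a median of -0.01. Nedd4l rose by 1.11 ± 0.25 (limma adjusted p = 0.03), Herc4 by 0.61 and Ube3c by 0.60, and Smurf2, a ligase that acts on Smad signalling, fell by 0.69. None of the 22 was called after 0 divisions against the control, where 0.297% of all genes were called. There 3 had an unadjusted p under 0.05, and the differences of the 22 ran from -0.28 to 0.74. For Mfsd6, 14 of 18 other Mfsd genes were measured, of which Mfsd13a rose between 3 or more divisions and 1 by 1.41 ± 0.31 (limma adjusted p = 0.0255). Mfsd2a, a lysolipid transporter gene, averaged 7.61 ± 0.57 after 3 or more divisions and 5.77 ± 1.63 after 1 and passed with the replicate block only (limma adjusted p = 0.174, and 0.00844 with it). None of the 14 was called after 0 divisions by limma, with 1 at an unadjusted p under 0.05. At a share of 0.297%, lists of this size without a call are not set apart from other genes.

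With the replicate number as a block, the counts of genes that passed as higher and as lower between 3 or more divisions and 1 were 8 and 2 for the host genes, 4 and 5 for the tetraspanins, 3 and 3 for the HERC and HECT ligases, 3 and 1 for the tetrahydrobiopterin list, 2 and 1 for the Mfsd genes and 3 and 0 for the Cdca7 list. Of all genes 24% were called in that fit, 13% as higher. After 0 divisions against the control, the block gave 5 host genes, 3 genes of the Cdca7 list and 1 tetraspanin as higher, where 2.36% of all genes were called as higher and 3.25% in either direction.

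**Figure D5:**
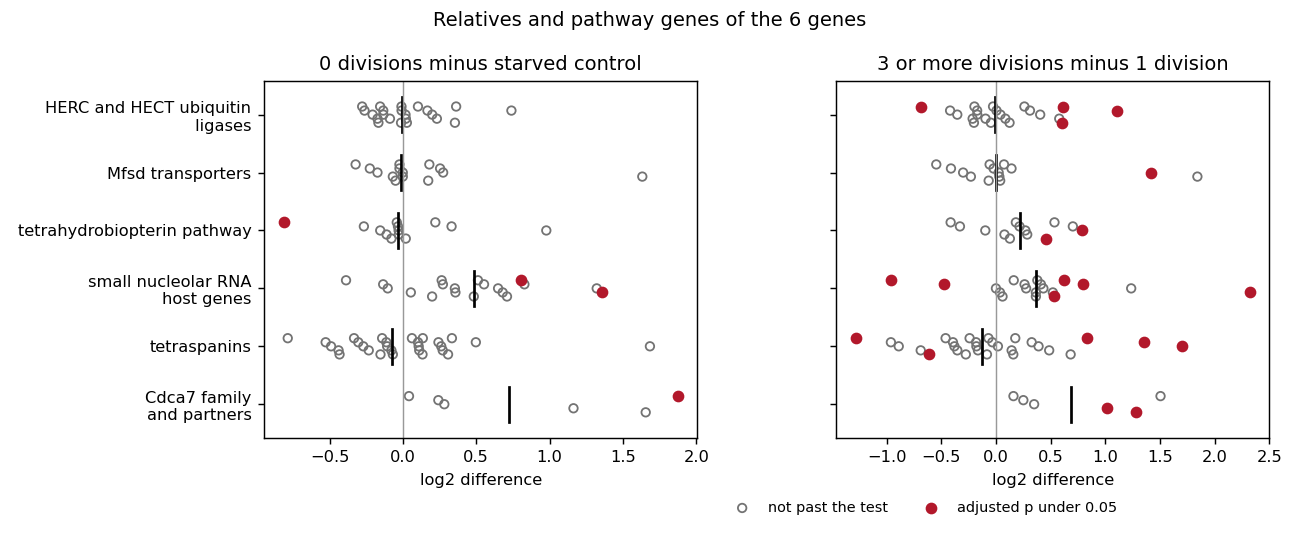
Log2 differences (x axis) of the genes of the 6 lists (rows), without the 6 chosen genes, for 0 divisions minus the starved control and for 3 or more divisions minus 1 division. Each point is a gene, filled for a limma adjusted p under 0.05, and black bars are list medians. The host genes of small nucleolar RNAs and the Cdca7 group lie mostly to the right in both panels, with medians of 0.48 and 0.72 for 0 divisions and 0.37 and 0.68 for 3 or more.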

How the data were processed

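The authors deposited 1 table of linear intensity for 45101 probe sets on 10 arrays, from 5.7 to 26572, with array medians of 31.4 to 33.95. RMA is named for 4 arrays, per the submitters' processing notes; no tool is named for the other 6. Values were floored at 1 (0 values lay below), taken to log2 and quantile normalized. The 34945 probe sets with 1 gene in the platform table were kept (932 had several, 9211 were not listed and 13 were controls), and the one with the highest mean stood for its gene, which left 18193 genes. Limma 3.58.1 in R 4.3.3 fitted 5 group means to 10 arrays (lmFit, eBayes, 5 residual degrees of freedom), and the number of arrays limits the precision. The method was tested on simulated data with independent noise on each array, which does not cover a correlation between arrays. Deviations of same-numbered arrays correlated with r of 0.477 to 0.872 in the 10 pairs of groups over 9096 genes, so same-numbered arrays were treated as pairs, on the data alone, in an alternative fit; results are from the fit without it unless stated.

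The members and lists were chosen with earlier results of these data known. Named genes were the 6 members, the next gene in the ranking, the 3 most correlated genes of each member and up to 3 called genes of each list. The other genes named from the lists (Ube3c, Ncl, Eif4a1, Eif4a2, Tspan3, Tspan14, Gchfr, Mfsd2a, Myc, Psip1, Max and Maoa) were chosen after their values were seen. Symbols and start site windows come from RefSeq, and no coordinates are given for probe sets, since the table names no build. Alternatives were a replicate block, other normalizations, a floor of 16, a filter on dim genes, the mean of a gene's probe sets, only the 6 arrays of 0, 1 and 2 divisions, and leaving out each array.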

Additional observations from a re-analysis of the deposited data

How the results depend on the processing

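With the replicate number as a block, to pair the samples, 4372 genes were called between 3 or more divisions and 1 (2232 without it) and 3449 between 3 or more divisions and 2 (1087 without it), and no call of the 6 genes changed. A floor of 16 gave 616 calls in the last comparison and took the calls of Mfsd6 (adjusted p = 0.0897) and Gch1 (0.0682) against 1 division, by limma; Mfsd6 also lost its call with the mean of its probe sets (0.0518). Cdca7l and Snhg4 kept both calls in all 6 such settings. Each is read by a single probe set, so the mean of probe sets could not change its own values. Leaving out 1 array gave 0 to 1 calls between 2 divisions and 1, 107 to 2034 between 3 or more divisions and 1, and 6 to 1170 between 3 or more divisions and 2. With 1 array left, a group is assumed to vary like the others. Signs turned only for differences that had not passed. With the mean of its probe sets Herc1 differed by -0.035 between 3 or more divisions and 1 and by -0.21 against 2, where its own probe sets disagree. Over fits that left out 1 array, the differences between 3 or more divisions and 2 ran from -0.011 to 0.11 for Herc1 (lowest without replicate 2 of 3 or more divisions), from -0.29 to 0.68 for Mfsd6 and from -0.074 to 0.13 for Tspan13 (both lowest without replicate 2 of 2 divisions), and Tspan13 differed by -0.033 without replicate 1 of 3 or more divisions. Centring each array on its median moved the log2 difference of Herc1 between 3 or more divisions and the control to 3.59, against 3.47. The cause was not tested. No detection calls were given, so differences of dim readings, such as those of Gch1 in the control, may be compressed.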
